A study of Mus musculus with 36 samples.

Results

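The response of proliferating C2C12 myoblasts to cerium oxide nanoparticles (nanoceria) in space without gravity was taken from 6 libraries of polyadenylated RNA. They were chosen by their labels: 3 libraries of the class grown with nanoceria in space without gravity were set against 3 of the class grown there without it, of 18 such libraries in the whole series. C2C12 is an established mouse line of muscle precursor cells. Both groups were seeded at 1500 cells per square centimetre on coverslips, flown in sealed culture units and kept at 37 °C in an incubator on the International Space Station, then fixed with RNAlater at day 9 after launch. The only stated difference was the medium reservoir, which held nanoceria at 100 µg/ml, coated with fetal bovine serum, in 1 group and none in the other. Each library came from its own culture unit, so the replicates are separate cultures of 1 line, grown at passages that the labels give as a range. "Without gravity" is the labels' term. Below, the 3 libraries without nanoceria are called untreated, and values for 3 libraries follow their order as replicates 1, 2 and 3. That order carries no meaning across groups.

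Nanoceria particles switch between the 2 oxidation states of cerium at their surface and can remove superoxide and hydrogen peroxide, which is why they are studied as antioxidants for muscle and for space flight. Cells meet oxidants with enzymes such as superoxide dismutases and glutathione peroxidases. Many of the genes for glutathione and thioredoxin metabolism are switched on by NRF2 (Nfe2l2), a transcription factor that KEAP1 and the CUL3 ligase mark for destruction until oxidants or electrophiles release it. Particles are taken up by endocytosis and reach lysosomes, and metal ions are buffered by metallothioneins and ferritin.

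The 6 libraries held between 2986628 and 6692745 counts. Lars2 and 5 noncoding genes with near-identical copies took 49.9%, 70.3% and 49.7% of them in the untreated libraries and 40.7%, 56.4% and 47.0% with nanoceria. The mean share was 56.6% ± 11.9 (SD, n = 3) untreated and 48.0% ± 7.92 (SD, n = 3) with nanoceria, a difference of −8.60 percentage points. The groups overlapped, and the 2-sided exact permutation p was 0.4 (smallest possible 0.1, Benjamini-Hochberg adjusted over 2 shares 0.4). Without untreated replicate 2, the library with the highest share, the difference was −1.75 points. Outside these 6 genes, between 1300958 and 3793922 counts remained. Correlations of log2 CPM (counts scaled to library size) between libraries were 0.833 to 0.868 within groups and 0.831 to 0.889 between them, so the libraries did not sort by treatment.

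The markers of the line were checked first. Desmin (Des), Myf5, vimentin (Vim) and Ncam1 were counted in all 6 libraries, whereas Myod1, a defining myoblast factor, had 0, 3 and 0 counts in the untreated libraries and 26, 0 and 0 with nanoceria. Myogenin (Myog), Myh3 and Ckm, which mark differentiated muscle, had at most 2 counts in any library. Summed over 6 such markers, counts were 8 to 18 untreated and 32 to 49 with nanoceria without overlap, mostly from Acta1, skeletal actin; the part of this difference in the results below was not tested. Summed over 8 myoblast markers, counts ranged from 8448 to 28186 in the untreated group and from 5650 to 27793 with nanoceria. Most of these counts came from Ncam1 and Vim in every library. Cdh15, another of the 8, had only 2, 18 and 6 counts untreated and 3, 2 and 5 with nanoceria. Of markers of other cells, Ptprc, Adgre1, Itgam, Kdr, Epcam, Cdh1, Adipoq and Hbb-bs were at 0 in every library of both groups. The summed endothelial markers stayed at 3 to 14 counts untreated and 2 to 6 with nanoceria. Epithelial markers summed to 1 to 7 and 2 to 11 counts, and erythroid markers to 1 to 4 and 0 to 6. Adipocyte markers summed to 3 to 20 and 3 to 15. Krt14 of the epithelial list had up to 11 counts and Pparg of the adipocyte list up to 20. The leukocyte list came to 31 to 109 and 30 to 136 counts, nearly all of them from Cd68, a lysosomal protein that many cells make.

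No gene passed the test for a nanoceria effect in space without gravity. Of 11558 genes tested with edgeR's quasi-likelihood test, 0 (0%) had a Benjamini-Hochberg adjusted p below the threshold of 0.05, and the smallest adjusted p was 0.968. At an unadjusted p below 0.05 there were 459 genes (3.97%), 274 of them higher with nanoceria, where 578 are expected if no gene differs. DESeq2's test likewise called 0 genes, with 474 at unadjusted p below 0.05, and limma voom called 0, with 383. Without a filter on low counts edgeR called 205 of 25194 genes, among them Osgin1, Pmaip1, Prkdc, Stat2 and Gin1 of the genes described below. Of the 205, 144 were also among the genes tested with the filter, and 90 had over 90% of their counts in 1 library. Log2 fold changes, given here as nanoceria minus untreated, had a median of −0.01, with the 5th and the 95th percentile at −1.30 and 1.56. Their median standard error was 0.74, or 0.67 for the 3329 genes with a mean of at least 100 counts. Since no gene passed, the values below describe these libraries, and the value after ± beside a log2 fold change is its standard error.

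A second description was whether all 3 libraries of a group lay above all 3 of the other, which is called not overlapping here. This held for 930 genes (8.05%), of which 393 (3.4%) were higher with nanoceria and 537 (4.65%) lower. The log2 fold change was above 0 for 5726 genes (49.5%). The counts in the gene lists below are to be read against these shares. Each list's median log2 fold change is followed in brackets by its lowest and highest value when 1 of the 6 libraries was left out, with the library named. In these fits the median of 16 of the 28 lists changed sign, and that of every list moved by over 1.5 times in at least 1 of them or turned. In RNA from whole cultures, fewer cells of a kind and less RNA per cell cannot be told apart.

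**Figure D1:**
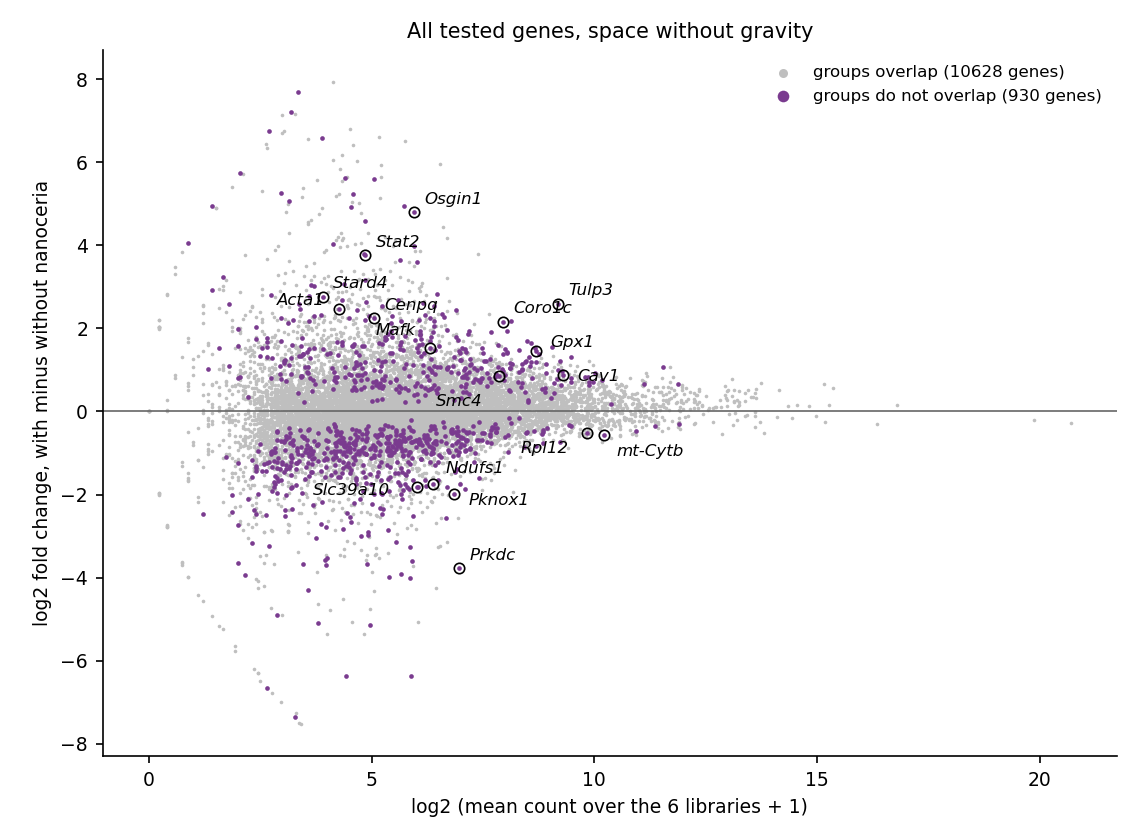
Log2 fold change (nanoceria minus untreated, vertical axis) of each of the 11558 tested genes against its mean count over the 6 libraries (log2, horizontal axis). Purple points are the 930 genes whose groups did not overlap, and they lie on both sides of 0 among the grey points of the other genes; circles mark genes described in the text.

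Of the tested redox genes, 20 of 28 in the NRF2 pathway and 17 of 23 enzymes for superoxide and peroxides were above 0. Promoter sequences of 3 NRF2 pathway genes are shown because Osgin1 and Mafk did not overlap between groups and Gclm is a classical NRF2 target, and those of both metallothioneins because they are the usual targets of metal exposure. Each runs 5′ to 3′ on the gene's strand from 250 bases before to 50 after the start site, from RefSeq on GRCm38.p6. Capitals mark matches on either strand to the core of the antioxidant response element, which NRF2 binds (TGACNNNGC), in the NRF2 pathway genes.
Osgin1, chr8:119436897-119437196, + strand: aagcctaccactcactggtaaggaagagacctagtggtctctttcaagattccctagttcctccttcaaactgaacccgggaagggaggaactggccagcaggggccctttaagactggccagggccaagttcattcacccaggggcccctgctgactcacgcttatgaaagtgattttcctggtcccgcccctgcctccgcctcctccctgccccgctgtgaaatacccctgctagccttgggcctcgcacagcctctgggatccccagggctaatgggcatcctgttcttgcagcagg
Mafk, chr5:139791286-139791585, + strand: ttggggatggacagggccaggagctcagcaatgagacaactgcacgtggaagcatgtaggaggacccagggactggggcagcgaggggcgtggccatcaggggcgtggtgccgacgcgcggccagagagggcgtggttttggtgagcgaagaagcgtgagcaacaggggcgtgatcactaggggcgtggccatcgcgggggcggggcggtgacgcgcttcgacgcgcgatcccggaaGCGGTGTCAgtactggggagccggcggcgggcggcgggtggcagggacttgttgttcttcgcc
Gclm, chr3:122245307-122245606, + strand: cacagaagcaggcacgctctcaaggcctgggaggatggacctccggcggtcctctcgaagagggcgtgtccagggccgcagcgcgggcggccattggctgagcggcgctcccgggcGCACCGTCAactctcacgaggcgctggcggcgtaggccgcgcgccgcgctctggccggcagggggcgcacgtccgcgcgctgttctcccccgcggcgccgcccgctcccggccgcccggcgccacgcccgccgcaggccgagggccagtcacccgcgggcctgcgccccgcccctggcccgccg
In the metallothionein genes, capitals mark matches to the core of the metal response element (TGCACNC or TGCGCNC, either strand).
Mt1, chr8:94178839-94179138, + strand: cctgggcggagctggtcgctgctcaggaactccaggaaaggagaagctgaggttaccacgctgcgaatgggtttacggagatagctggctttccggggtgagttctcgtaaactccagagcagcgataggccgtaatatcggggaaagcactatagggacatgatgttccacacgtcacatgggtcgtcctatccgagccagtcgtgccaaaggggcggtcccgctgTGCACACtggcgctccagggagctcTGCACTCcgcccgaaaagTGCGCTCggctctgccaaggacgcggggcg
Mt2, chr8:94172368-94172667, + strand: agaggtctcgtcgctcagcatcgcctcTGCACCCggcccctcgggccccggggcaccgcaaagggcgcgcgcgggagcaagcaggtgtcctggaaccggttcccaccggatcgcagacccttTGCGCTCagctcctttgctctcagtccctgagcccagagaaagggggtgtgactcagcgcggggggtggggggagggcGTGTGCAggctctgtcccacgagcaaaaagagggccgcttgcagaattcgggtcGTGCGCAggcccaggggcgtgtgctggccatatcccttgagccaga
The antioxidant core had 1 match in Mafk, 1 in Gclm and 0 in Osgin1, and the metal core had 3 in Mt1 and 4 in Mt2. These short cores are common: of 32851 promoters of this length, 12.4% held the antioxidant core and 25.7% the metal core. Among genes tested with a promoter in the table, the antioxidant core was present in 17.2% of all 8470, in 17.6% of the 306 that were higher without overlap and in 14.6% of the 397 that were lower without overlap. A match is only a run of letters and shows no binding. For Osgin1 the window lies around a RefSeq start inside the counted gene, whose first base is at chr8:119434124. The bases around that position were not searched.

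In the NRF2 pathway list, 20 of 28 tested genes were above 0 with a median log2 fold change of 0.28 (0.16 without nanoceria replicate 3 to 0.38 without nanoceria replicate 1), none passed the test, and 3 did not overlap, all higher with nanoceria. Osgin1, an NRF2-responsive gene linked to oxidative stress and growth inhibition, was at 1.60, 0.336 and 1.43 CPM untreated and at 20.1, 72.0 and 3.05 CPM with nanoceria. Nanoceria replicate 3 lay close to the untreated libraries and the other 2 far above them. The log2 fold change was 4.80 ± 1.27 (SE; edgeR unadjusted p = 0.00133, adjusted 0.968), and the untreated values rest on 8, 2 and 8 counts. Mafk, a small MAF protein that pairs with NRF2 on DNA, was at 11.03, 3.69 and 8.55 CPM untreated and 26.6, 24.9 and 15.9 CPM with nanoceria (log2 fold change 1.53 ± 0.59). Its lowest nanoceria library lay above its highest untreated one. Cul3, the ligase scaffold that carries KEAP1, was at 19.9, 24.5 and 18.9 CPM untreated and at 28.7, 29.7 and 28.6 CPM with nanoceria, a narrow range in both groups (0.46 ± 0.51). Nfe2l2 itself (0.10 ± 0.57) and Keap1, the sensor that holds it back (0.31 ± 0.51), overlapped.

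The enzymes that NRF2 is known to drive varied mostly between replicates. Nqo1, a quinone reductase, was at 58.4, 12.3 and 90.9 CPM untreated, and with nanoceria at 140 CPM in replicate 1, 44.0 CPM in replicate 3 and above both in replicate 2. Txnrd1, thioredoxin reductase, was at 186.1, 34.2 and 53.5 CPM untreated and at 165, 286 and 146 CPM with nanoceria. Gclm, the modifier subunit of the enzyme that starts glutathione synthesis, was at 76.4, 25.5 and 36.0 CPM untreated and at 68.7, 138 and 76.0 CPM with nanoceria. In all 3 genes untreated replicate 2 was the lowest library and nanoceria replicate 2 the highest, and the groups overlapped. Their log2 fold changes were 1.19 ± 0.89, 1.12 ± 0.81 and 1.03 ± 0.76. Hmox1, heme oxygenase, was at 194, 176 and 131 CPM untreated and at 178, 258 and 288 CPM with nanoceria (0.53 ± 0.64). Slc7a11, the cystine importer (0.33 ± 0.93), and Srxn1, sulfiredoxin (0.19 ± 0.72), overlapped as well. At the other end of the list, Mgst1, a membrane glutathione transferase, had a log2 fold change of −0.49 ± 0.63. Of 23 listed genes with a promoter in the table, 11 held the antioxidant core; their median log2 fold change was 0.23, against 0.30 for the tested genes without it.

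Among the enzymes that remove superoxide and peroxides, 17 of 23 tested genes were above 0, with a median log2 fold change of 0.19 (0.12 without nanoceria replicate 3 to 0.27 without nanoceria replicate 1). Of these genes 2 did not overlap, 1 in each direction. Gpx1, the main cytosolic glutathione peroxidase, was at 21.1, 32.1 and 79.8 CPM untreated and at 81.4, 153 and 128 CPM with nanoceria. Untreated replicate 3 and nanoceria replicate 1 nearly touched, and the log2 fold change was 1.44 ± 0.66 (edgeR unadjusted p = 0.0416, adjusted 1). Glrx3, a glutaredoxin, was the one lower gene, at 22.1, 24.0 and 31.4 CPM untreated and 14.1, 20.8 and 19.6 CPM with nanoceria (−0.51 ± 0.51). The superoxide dismutases overlapped: Sod1 was at 843, 278 and 345 CPM untreated and at 390, 576 and 600 CPM with nanoceria (0.09 ± 0.75), and mitochondrial Sod2 differed by 0.25 ± 0.70. Catalase (Cat, 0.33 ± 0.54), Prdx1, a peroxiredoxin (0.23 ± 0.74), and Gpx4, which reduces lipid peroxides (−0.20 ± 0.50), likewise overlapped. Ccs, which loads copper into SOD1, had the lowest value of the list (−0.52 ± 0.75).

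**Figure D2:**
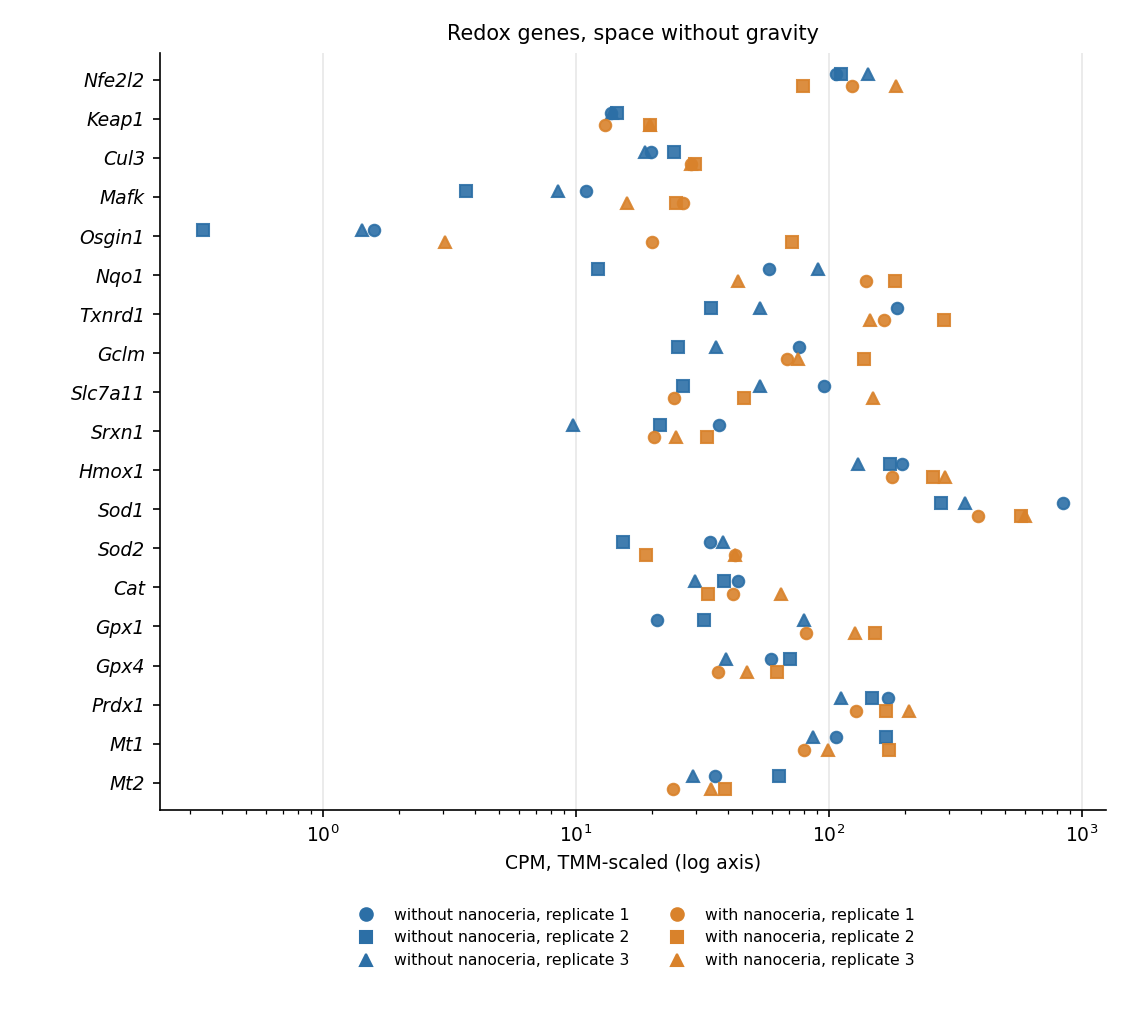
TMM-scaled CPM (log axis) of 19 redox and metal genes in each library of space without gravity; blue points are untreated, orange points had nanoceria, and the shape gives the replicate. Osgin1, Mafk, Cul3 and Gpx1 show every orange point to the right of every blue one, and the other 15 overlap.

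Metal-handling genes gave no common direction. Mt1, a metallothionein, was at 107, 169 and 87.0 CPM untreated and at 80.2, 173 and 99.5 CPM with nanoceria (−0.05 ± 0.69), and replicate 2 was the highest library in both groups. Mt2 was at 35.5, 63.9 and 29.1 CPM untreated and at 24.2, 39.0 and 34.4 CPM with nanoceria (−0.40 ± 0.59). For Mt2, 73.5% of exon bases are shared with Gm45774 on the opposite strand, which had 22 counts in the 6 libraries together. With the zinc transporters, 7 of 18 tested genes were above 0 and the median was −0.27 (−0.41 without nanoceria replicate 3 to −0.08 without nanoceria replicate 1). The 4 that did not overlap were all transporters. Slc39a10, a zinc importer, was at 13.0, 11.4 and 30.7 CPM untreated and at 4.95, 6.68 and 4.06 CPM with nanoceria (−1.82 ± 0.78). Slc39a8, which imports zinc and manganese, was at 4.01, 3.52 and 1.78 CPM untreated and at 0.874, 1.11 and 1.19 CPM with nanoceria (−1.54 ± 0.88). Slc39a7, which releases zinc from the endoplasmic reticulum, was also lower (−0.48 ± 0.85), and it shares 80.7% of its exon bases with Gm20427. Slc30a6, a Golgi zinc exporter, was the one higher gene (1.50 ± 0.76), from 0.839 to 1.43 CPM untreated to 2.18 to 4.08 CPM with nanoceria.

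In iron handling, 6 of 16 tested genes were above 0 (12 without untreated replicate 2), the median was −0.03 (−0.11 without nanoceria replicate 2 to 0.10 without untreated replicate 2) and 0 did not overlap. The ferritin chains Fth1 (0.10 ± 0.63) and Ftl1 (−0.02 ± 0.61) and the transferrin receptor Tfrc (−0.41 ± 1.08) all overlapped. Slc11a2, which carries iron out of endosomes, was lowest in the list (−1.15 ± 0.72), and Nfs1, which supplies sulfur for iron-sulfur clusters, highest (0.41 ± 0.52).

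Genes of endocytosis and particle uptake had 14 of 26 tested members above 0 and a median of 0.02 (−0.06 without nanoceria replicate 3 to 0.18 without nanoceria replicate 1). The mean log2 CPM of the list was 4.96, 4.90 and 5.02 in the untreated libraries and 5.04, 5.07 and 5.15 with nanoceria, so the groups did not overlap although they lay close. With DESeq2 size factors in place of TMM they did overlap and the median was −0.05. Cav1, the coat protein of caveolae, was at 86.0, 66.3 and 100.7 CPM untreated and at 150, 157 and 156 CPM with nanoceria. All 3 nanoceria libraries agreed closely and lay above the untreated range (0.87 ± 0.77). Cltb, a clathrin light chain, was at 7.82, 7.72 and 18.5 CPM untreated and at 20.8, 25.2 and 25.9 CPM with nanoceria (1.08 ± 0.73). Ehd2, which sits at the neck of caveolae, was also higher without overlap (0.88 ± 0.78), whereas Rab5a, the small GTPase of early endosomes, was lower (−0.92 ± 0.75). Of lysosome and autophagy genes, 18 of 35 were above 0, with a median of 0.03 (−0.07 without untreated replicate 3 to 0.22 without nanoceria replicate 1). Tpp1, a lysosomal peptidase, was at 35.1, 25.7 and 22.8 CPM untreated and at 38.4, 54.2 and 54.3 CPM with nanoceria (0.81 ± 0.58). Tfe3, a transcription factor for lysosome genes, was higher by a small margin (0.39 ± 0.51). The lysosomal membrane protein Lamp1 (−0.27 ± 0.71) overlapped, as did Atg7 (0.89 ± 0.62), the highest of the list.

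Transcripts of the mitochondrial genome were mostly lower with nanoceria, and the level of the list overlapped between the groups. Its mean log2 CPM was 6.89, 6.30 and 6.33 untreated and 6.05, 5.79 and 6.48 with nanoceria. Of 11 tested genes 10 were below 0, with a median of −0.46 (−0.59 without nanoceria replicate 3 to −0.26 without untreated replicate 1), and 3 did not overlap. mt-Cytb, a subunit of complex III, was at 331, 232 and 230.2 CPM untreated and at 157, 157 and 217 CPM with nanoceria (−0.58 ± 0.60). mt-Co3 of complex IV was also lower without overlap (−0.50 ± 0.59), and mt-Nd1 of complex I was the one gene above 0 (0.14 ± 0.90). mt-Atp8 was lowest (−1.36 ± 1.14), on few counts. As a share of counts outside the dominant genes, the mitochondrial protein-coding genes made up 0.584%, 0.770% and 0.427% untreated and 0.368%, 0.355% and 0.496% with nanoceria. The means were 0.594% ± 0.172 (SD, n = 3) and 0.406% ± 0.0777 (SD, n = 3). The 2-sided exact permutation p of the difference was 0.2 (adjusted 0.4). With 3 libraries a side that test cannot go below 0.1, so it could not pass at 0.05. Without untreated replicate 2 the difference was smaller, −0.0991 against −0.187 percentage points. As a share of all counts, the same genes made up 0.293%, 0.228% and 0.215% untreated and 0.218%, 0.155% and 0.263% with nanoceria. That difference was −0.033 points (2-sided exact permutation p 0.5), so its size depended on leaving the dominant genes out of the denominator. Nuclear genes of the respiratory chain split evenly, with 27 of 57 above 0 and a median of −0.01 (−0.12 without nanoceria replicate 2 to 0.14 without untreated replicate 2). Ndufs1, the largest iron-sulfur subunit of complex I, was at 43.5, 11.2 and 16.4 CPM untreated and at 8.44, 4.08 and 8.46 CPM with nanoceria (−1.74 ± 0.59, unadjusted p = 0.00844). Ndufa8, an accessory subunit of the same complex, was higher without overlap (1.31 ± 0.81).

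Cytosolic ribosomal protein genes shared small negative values: 63 of 66 were below 0, with a median of −0.22 (−0.33 without nanoceria replicate 2 to −0.01 without untreated replicate 2). Without untreated replicate 2 only 37 were below 0. The mean log2 CPM of the list was 7.30, 7.82 and 7.21 untreated and 7.04, 7.48 and 7.22 with nanoceria, with replicate 2 highest in both groups, the same libraries that had the highest share of dominant genes. With the dominant genes removed before scaling the list median was −0.21. The part of their share in the result was not tested otherwise. Rpl12 was at 197, 240 and 165 CPM untreated and at 126, 146 and 151 CPM with nanoceria (−0.51 ± 0.65). Rpl34 was also lower without overlap (−0.45 ± 0.54), and Rpl30 was the highest of the list (0.19 ± 0.76). Ribosomal protein genes have many processed copies, and how reads that match several copies were counted is not given in the sources used here.

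In the list of mitosis and chromosome segregation 30 of 35 tested genes were above 0, the median was 0.60 (0.32 without nanoceria replicate 1 to 0.86 without untreated replicate 3) and 6 genes did not overlap, all higher with nanoceria. The mean log2 CPM of the list was 1.98, 2.29 and 2.70 untreated and 3.34, 2.20 and 2.72 with nanoceria, so nanoceria replicate 1 stood above all others and replicate 2 lay within the untreated range. Without nanoceria replicate 1, 20 of 35 were above 0. Cenpq, a protein of the inner kinetochore, was at 1.60, 2.68 and 2.32 CPM untreated and at 5.68, 11.1 and 14.7 CPM with nanoceria. Every nanoceria library had at least 30 counts of it and every untreated library at most 16 (2.24 ± 0.67, unadjusted p = 0.0034, adjusted 0.968). Smc4, a condensin subunit, was at 27.3, 29.2 and 40.1 CPM untreated and at 54.3, 70.5 and 48.6 CPM with nanoceria (0.84 ± 0.53). Nuf2, which links kinetochores to microtubules, was higher by a small margin (0.48 ± 0.90), and Bub1, a checkpoint kinase, was the lowest of the list (−1.15 ± 0.88). Nuf2 had only 6, 12 and 12 counts untreated and 21, 6 and 13 with nanoceria. Mki67, the proliferation marker, was at 10.8, 15.4 and 15.5 CPM untreated and at 20.0, 66.5 and 8.97 CPM with nanoceria, spanning the untreated range (1.18 ± 0.91).

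DNA replication genes did not lean the same way: 18 of 33 were above 0 and the median was 0.08 (−0.07 without untreated replicate 1 to 0.22 without untreated replicate 3). Mcm10, a replication factor, was highest (3.17 ± 1.07), but nanoceria replicate 3 had 3 counts of it and the other 2 had 99 and 32. Tyms, thymidylate synthase, was lowest (−1.64 ± 1.01), and Rfc3, a clamp loader subunit, was lower without overlap (−0.46 ± 0.68). The Rfc3 groups nearly touched, at 3.01 CPM (15 counts) in untreated replicate 1 and 2.97 CPM (8 counts) in nanoceria replicate 2. Of p53 targets, 22 of 26 were above 0 (17 without untreated replicate 3) with a median of 0.43 (0.20 without nanoceria replicate 3 to 0.54 without nanoceria replicate 2), and the mean log2 CPM of the list was 4.71, 4.19 and 4.58 untreated and 5.16, 4.83 and 4.87 with nanoceria. The list level did not overlap, whereas 0 of its genes were without overlap. Cdkn1a, the cell cycle inhibitor p21, was at 186.1, 136 and 132 CPM untreated and at 151, 180.4 and 165 CPM with nanoceria (0.13 ± 0.56). Pmaip1, the cell death protein NOXA, was at 1.00, 4.03 and 3.74 CPM untreated and at 28.5, 128 and 3.56 CPM with nanoceria (4.17 ± 1.10, unadjusted p = 0.00129). Its nanoceria replicate 3 lay inside the untreated range, and the other 2 far above it. Ccng2, a cyclin that slows the cycle, was the lowest (−0.61 ± 0.72).

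Myoblast identity genes had 11 of 23 members above 0 and a median of −0.02 (−0.31 without nanoceria replicate 1 to 0.35 without untreated replicate 3). Myf5, a determination factor, was at 50.5, 20.0 and 87.7 CPM untreated and at 33.2, 44.6 and 102 CPM with nanoceria (0.19 ± 0.60), and Des differed by 0.25 ± 0.66. Cdh2, N-cadherin, was at 27.3, 20.5 and 28.2 CPM untreated and at 32.9, 65.3 and 29.6 CPM with nanoceria (0.75 ± 0.62). Igf2, a myoblast growth factor, was also higher without overlap (1.28 ± 0.90), at 0.336 to 1.43 CPM untreated and 2.03 to 2.60 CPM with nanoceria. Met, the receptor for hepatocyte growth factor, was lowest (−1.71 ± 0.84), where untreated replicate 3 alone stood high at 56.9 CPM. Only 9 of 33 genes of myogenic differentiation had enough counts to be tested, 5 of them above 0, with a median of 0.42 (0.16 without untreated replicate 1 to 0.61 without untreated replicate 2). Of these Acta1, skeletal actin, had 7, 9 and 6 counts untreated and 33, 42 and 13 with nanoceria (2.45 ± 1.02). Neb, nebulin, had 1, 0 and 0 counts untreated and 3, 2 and 4 with nanoceria, at the floor of detection. In the list of atrophy and myostatin genes 14 of 21 were above 0 with a median of 0.15 (0.01 without nanoceria replicate 2 to 0.33 without untreated replicate 2), and 0 were without overlap. Its ends were Fbxo32, the ubiquitin ligase atrogin-1 (−1.49 ± 0.74), and Acvr2b, a myostatin receptor (1.16 ± 0.96).

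Collagen and matrix genes were below 0 in 27 of 39 cases, with a median of −0.22 (−0.51 without nanoceria replicate 1 to 0.07 without untreated replicate 3). The number above 0, 12 of 39, went from 7 to 20 in the same fits. Col1a1 was at 17.9, 48.5 and 66.3 CPM untreated and at 123, 41.6 and 22.7 CPM with nanoceria (0.50 ± 1.36). Col3a1 was at 61.2, 406 and 267 CPM untreated and at 305, 181.9 and 145 CPM with nanoceria (−0.22 ± 0.85), so both fibrillar collagens varied several fold within each group. Loxl2, which cross-links collagen, was the one gene without overlap, at 6.62, 7.72 and 7.66 CPM untreated and 2.48, 5.57 and 2.88 CPM with nanoceria (−1.04 ± 0.75). Tnc, tenascin C (−1.11 ± 1.17), and Col6a2 (1.79 ± 1.37) were the ends of the list.

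Focal adhesion genes split evenly, with 17 of 33 above 0 and a median of 0.03 (−0.18 without untreated replicate 1 to 0.11 without untreated replicate 2). Actn1, an actin cross-linker, was at 27.3, 64.6 and 48.1 CPM untreated and at 93.8, 66.5 and 64.7 CPM with nanoceria (0.68 ± 0.60), and Itga5, a fibronectin receptor chain, was also higher without overlap (0.66 ± 0.62). Tln2, a talin that activates integrins, was at 41.5, 12.8 and 8.73 CPM untreated and at 8.30, 6.31 and 5.25 CPM with nanoceria (−1.66 ± 0.72). Targets and partners of SRF and YAP had 18 of 28 above 0 and a median of 0.18 (−0.00075 without nanoceria replicate 2 to 0.43 without nanoceria replicate 3). Wwtr1, the YAP paralog TAZ, was at 47.5, 46.6 and 57.4 CPM untreated and at 67.8, 92.4 and 67.9 CPM with nanoceria (0.59 ± 0.55). Mrtfa, a coactivator of SRF, was lowest (−1.60 ± 0.60), and Tead1, the DNA-binding partner of YAP, highest (0.95 ± 1.07). Of actins, tubulins and intermediate filaments, 19 of 30 were above 0 and the median was 0.12 (0.09 without nanoceria replicate 1 to 0.23 without nanoceria replicate 3). Actb, cytoplasmic actin, was at 5995, 2177 and 8333 CPM untreated and at 10090, 10830 and 5168 CPM with nanoceria (0.66 ± 0.82). Tuba1b, an alpha tubulin, was higher without overlap by a small margin (0.23 ± 0.55).

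Genes of the unfolded protein response and ATF4 were above 0 in 14 of 39 cases, with a median of −0.16 (−0.20 without untreated replicate 2 to 0.01 without untreated replicate 1). There were 8 above 0 without nanoceria replicate 2 and 20 without untreated replicate 1. Sel1l, part of the machinery that removes misfolded proteins from the endoplasmic reticulum, was at 142, 143 and 159 CPM untreated and at 114, 115 and 122 CPM with nanoceria. Both groups were tight and apart, and the log2 fold change was −0.34 ± 0.67. Stc2, a secreted stress glycoprotein, was also lower without overlap (−0.74 ± 0.56), and Calr, calreticulin, was highest (0.40 ± 0.67). Heat shock chaperones had 10 of 28 above 0 and a median of −0.05 (−0.14 without untreated replicate 3 to 0.04 without untreated replicate 1). Tcp1, a subunit of the chaperonin that folds actin and tubulin, was at 72.2, 137 and 103 CPM untreated and at 69.3, 42.0 and 71.6 CPM with nanoceria (−0.77 ± 0.64). Among glycolysis and hypoxia genes 14 of 32 were above 0 and the median was −0.13 (−0.15 without untreated replicate 1 to −0.04 without untreated replicate 3). Egln3, an oxygen-sensing prolyl hydroxylase, was at 53.4, 65.1 and 55.2 CPM untreated and at 37.7, 32.7 and 47.2 CPM with nanoceria (−0.56 ± 0.59), whereas Vegfa, another hypoxia-responsive gene, overlapped (0.38 ± 0.64). For cholesterol and fatty acid synthesis 19 of 31 were above 0 with a median of 0.18 (−0.02 without nanoceria replicate 2 to 0.11 without nanoceria replicate 1). Stard4, a cholesterol carrier, had 2, 1 and 7 counts untreated and 37, 4 and 33 with nanoceria (2.76 ± 1.16).

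Among signalling genes, interferon response genes had 6 of 12 above 0 and a median of 0.04 (0.03 without nanoceria replicate 3 to 0.18 without untreated replicate 1), while the mean log2 CPM of the list was 2.38, 2.45 and 2.35 untreated and 2.81, 2.71 and 2.83 with nanoceria and did not overlap. With DESeq2 size factors the list level overlapped and the median was −0.03. Stat2, which carries type I interferon signals, had 2, 6 and 4 counts untreated and 54, 23 and 79 with nanoceria (3.76 ± 1.18, unadjusted p = 0.00478), and was the only one of the 12 without overlap. Bst2, an interferon-induced membrane protein, was lowest on 0 to 9 counts. Cytokines and chemokines had 8 of 18 above 0 and a median of −0.21 (−0.68 without nanoceria replicate 1 to 0.06 without untreated replicate 3): Nfkb1 was lower without overlap (−0.999 ± 0.92), and Cxcl12, the ligand of CXCR4, was at 3.81, 16.4 and 8.02 CPM untreated and at 16.7, 99.1 and 2.71 CPM with nanoceria (2.05 ± 1.11). In the TGF-beta and BMP response 14 of 27 were above 0 and the median was 0.07 (−0.24 without nanoceria replicate 1 to 0.33 without untreated replicate 3). Tgfb2, one of the ligands, was at 2.21, 9.06 and 7.84 CPM untreated and at 35.1, 34.2 and 10.3 CPM with nanoceria (2.05 ± 1.12). Immediate early genes had 10 of 21 above 0 and a median of −0.01 (−0.01 without untreated replicate 3 to 0.38 without untreated replicate 1), and Junb, an AP-1 subunit, was the one without overlap (0.45 ± 0.50). Clock genes had 9 of 16 above 0 and a median of 0.24 (−0.27 without nanoceria replicate 2 to 0.33 without untreated replicate 1), or −0.10 with limma voom, while the mean level of the list was 3.41 to 3.67 untreated and 3.30 to 3.61 with nanoceria, so median and mean differed in sign. Cry2 (−0.97 ± 0.94) and Dbp (−0.62 ± 0.67) were lower without overlap and Per2 higher on 1 to 14 counts. Over all 28 lists the mean level did not overlap in 3, all higher with nanoceria (p53 targets, interferon response and endocytosis), and with DESeq2 size factors only in p53 targets. That scaling moved the median of all genes from −0.01 to −0.08 and turned the sign of 6 list medians that lay close to 0: DNA replication (−0.08), endocytosis, focal adhesion (−0.04), interferon response, lysosome and autophagy (−0.07) and TGF-beta (−0.04).

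**Figure D3:**
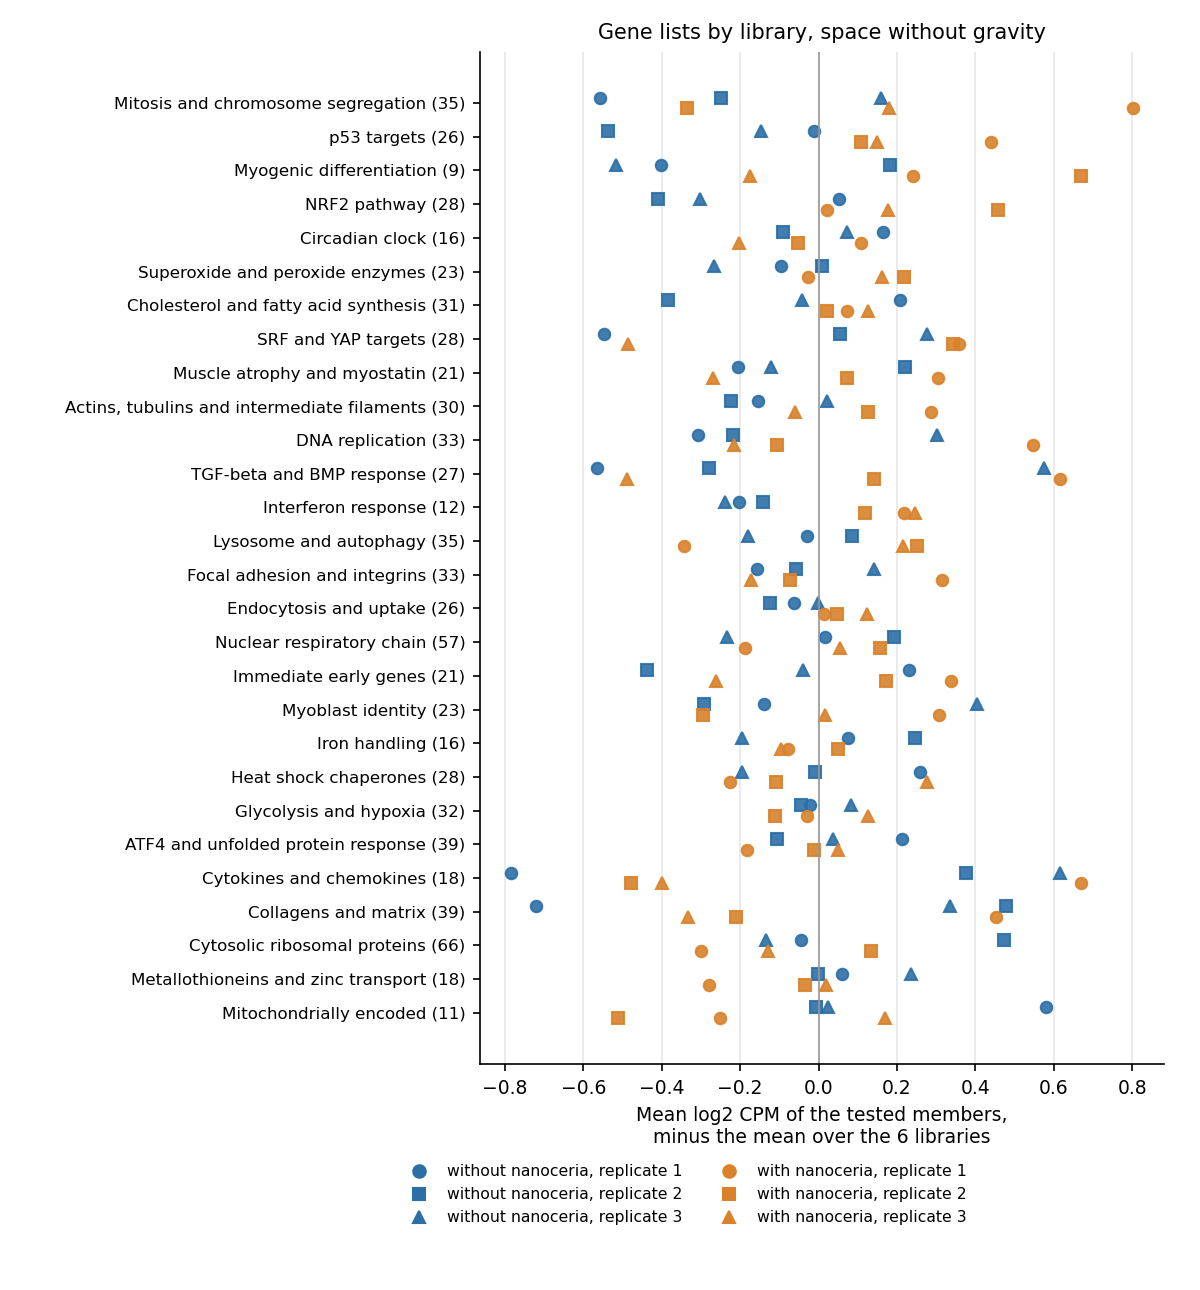
Mean log2 CPM of the tested members of each of 28 gene lists in each library, as the difference from the mean over the 6 libraries (horizontal axis); the number of tested members is in brackets, and lists are ordered by their median log2 fold change. Blue and orange points overlap for 25 lists and are apart for p53 targets, interferon response, and endocytosis and uptake; with DESeq2 size factors only p53 targets stay apart.

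The abundant genes that stood furthest apart were picked by their values and are given as a description. Of 3236 tested protein-coding nuclear genes with a mean of at least 100 counts, 216 (6.67%) did not overlap, 132 higher and 84 lower. Among the 12 with the highest log2 fold changes were Tulp3, Cdca4, Nploc4, Coro1c, Pygo2, Ankrd33b, Ccdc43, Myo6, Bet1, Pogz and Ska2, from 2.60 down to 1.69. Tulp3, which brings receptors into primary cilia, was at 64.4, 11.7 and 28.0 CPM untreated and between 144 and 304 CPM with nanoceria (2.60 ± 1.28). Coro1c, a coronin that binds actin filaments, was at 8.62, 13.6 and 29.4 CPM untreated and at 72.5, 75.7 and 83.0 CPM with nanoceria (2.16 ± 1.01), with the nanoceria libraries close to each other. Ska2, a spindle and kinetochore protein, was at 40.3, 9.73 and 48.5 CPM untreated and at 111, 108 and 98.4 CPM with nanoceria (1.69 ± 1.19), again with a tight nanoceria group. Myo6, a myosin that moves endocytic vesicles inwards, was from 8.38 to 14.6 CPM untreated and from 20.1 to 67.2 CPM with nanoceria (1.87 ± 0.68).

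The 12 with the lowest values were Prkdc, Bivm, Pknox1, Creb1, Emsy, AW549877, Clcn5, Qars, Btbd1, Ube2e3, Fip1l1 and Zmym2, from −3.77 up to −1.05. Prkdc, the DNA-dependent protein kinase that repairs double-strand breaks, was at 82.4, 5.87 and 42.4 CPM untreated and at 5.39, 1.49 and 2.37 CPM with nanoceria (−3.77 ± 0.98, unadjusted p = 0.00118). Untreated replicate 2 lay just above the highest nanoceria library. Pknox1, a homeodomain factor, was at 65.8, 13.6 and 27.4 CPM untreated and at 7.57, 12.3 and 7.11 CPM with nanoceria (−2.00 ± 0.54). Creb1, the cAMP-responsive factor, was at 68.0, 18.6 and 33.2 CPM untreated and at 17.3, 7.795 and 7.62 CPM with nanoceria (−1.86 ± 0.85). Clcn5, an endosomal chloride and proton exchanger, was at 28.9, 20.0 and 91.1 CPM untreated and at 14.6, 14.9 and 16.4 CPM with nanoceria (−1.61 ± 0.70). In 9 of the 12, untreated replicate 1 was the highest library, and the spread lay mostly in the untreated group.

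**Figure D4:**
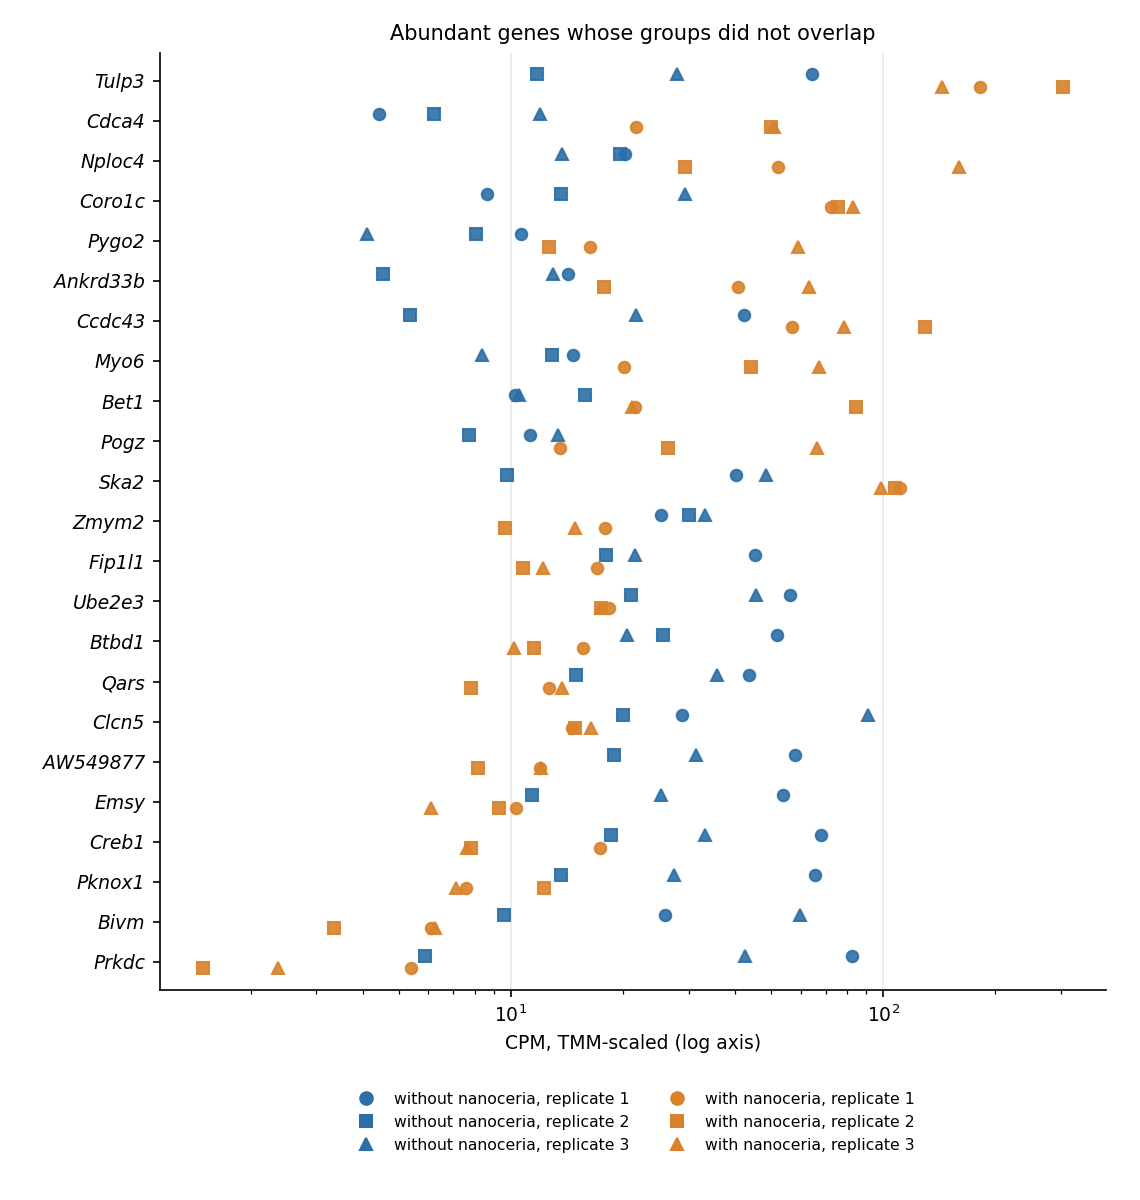
TMM-scaled CPM (log axis) of the abundant genes named above in each library; blue points are untreated and orange points had nanoceria. By the choice of genes the groups never overlap; for most of the lower genes (Prkdc to Zmym2) the blue points spread more widely than the orange ones, and for most of the higher genes (Ska2 to Tulp3) the orange points include 1 library far from the others or close to the blue range.

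The design allows the nanoceria effect without gravity to be set against that in the other regimes, which share no libraries with it: 3 libraries a side in space with gravity and 3 a side in the ground run on land. The difference between effects was tested in the same fit. It passed for 0 genes (0%) against space with gravity, with 492 (4.26%) at unadjusted p below 0.05 and a smallest adjusted p of 0.358. Against land it passed for 0 genes (0%), with 785 (6.79%) at unadjusted p below 0.05 and a smallest adjusted p of 0.441. DESeq2's test called 15 and 37 genes for these differences. One nanoceria library of space with gravity held only 23858 counts; without it the smallest adjusted p of the first test was 0.495.

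Genes of this comparison showed no common order with the other regimes. The rank correlation of log2 fold changes across the 11558 genes, given as a description, was −0.05 with space with gravity (−0.03 without the small library) and 0.03 with land. Of the 930 genes without overlap here, 61 (6.56%) did not overlap in the same direction in space with gravity, where they were 5.42% of the 1126 such genes, and 66 (7.10%) on land, 5.65% of the 1169 there. By direction, 6 of the 393 higher genes (1.53%) were also higher without overlap in space with gravity, against 1.28% of all tested genes, and 55 of the 537 lower genes (10.2%) also lower, against 8.46%. These shares in space with gravity include the small library, in which only 4880 genes had counts. On land the shares were 2.29% of the higher genes against 3.7% of all, and 10.6% of the lower genes against 6.41%; these differences were not tested. Osgin1 was lower with nanoceria in space with gravity (−4.02 ± 1.35, or −4.004 without the small library) and had −2.22 ± 1.12 on land, against 4.80 without gravity. The difference between effects had an edgeR unadjusted p of 1.55e-04 and an adjusted p of 0.358 against space with gravity. Untreated libraries alone ran from 4.19 to 68.0 CPM in space with gravity. On land they were at 6.88, 5.88 and 58.2 CPM, against 4.44, 3.81 and 6.84 CPM with nanoceria, so untreated replicate 3 stood alone. Pmaip1 had −1.02 ± 1.05 and −1.85 ± 1.04 in the other regimes. Cav1 had −1.93 ± 0.80 in space with gravity (−1.56 without the small library) and 0.02 ± 0.77 on land. Gpx1 had 0.25 ± 0.65 and −0.04 ± 0.65, and Mafk −0.41 ± 0.62 and −0.20 ± 0.59, so neither stood apart there. Coro1c had −2.42 ± 1.03 on land, where untreated replicate 3 at 172.8 CPM stood far above the other untreated libraries at 13.6 and 6.90 CPM.

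Some list medians shared a sign between regimes and others did not. The median of the mitosis list was 0.60 without gravity, −0.16 in space with gravity (0.05 without the small library) and −0.44 on land. For the NRF2 pathway the medians were 0.28, −0.19 (0.19 without the small library) and −0.38, and for p53 targets 0.43, −0.35 (−0.06) and −0.10. Mitochondrially encoded genes had medians of −0.46, −1.84 (−1.76) and 0.08. Ribosomal protein genes had −0.22, −0.20 (0.17 without the small library) and −0.36. Differences between these list medians were not tested.

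**Figure D5:**
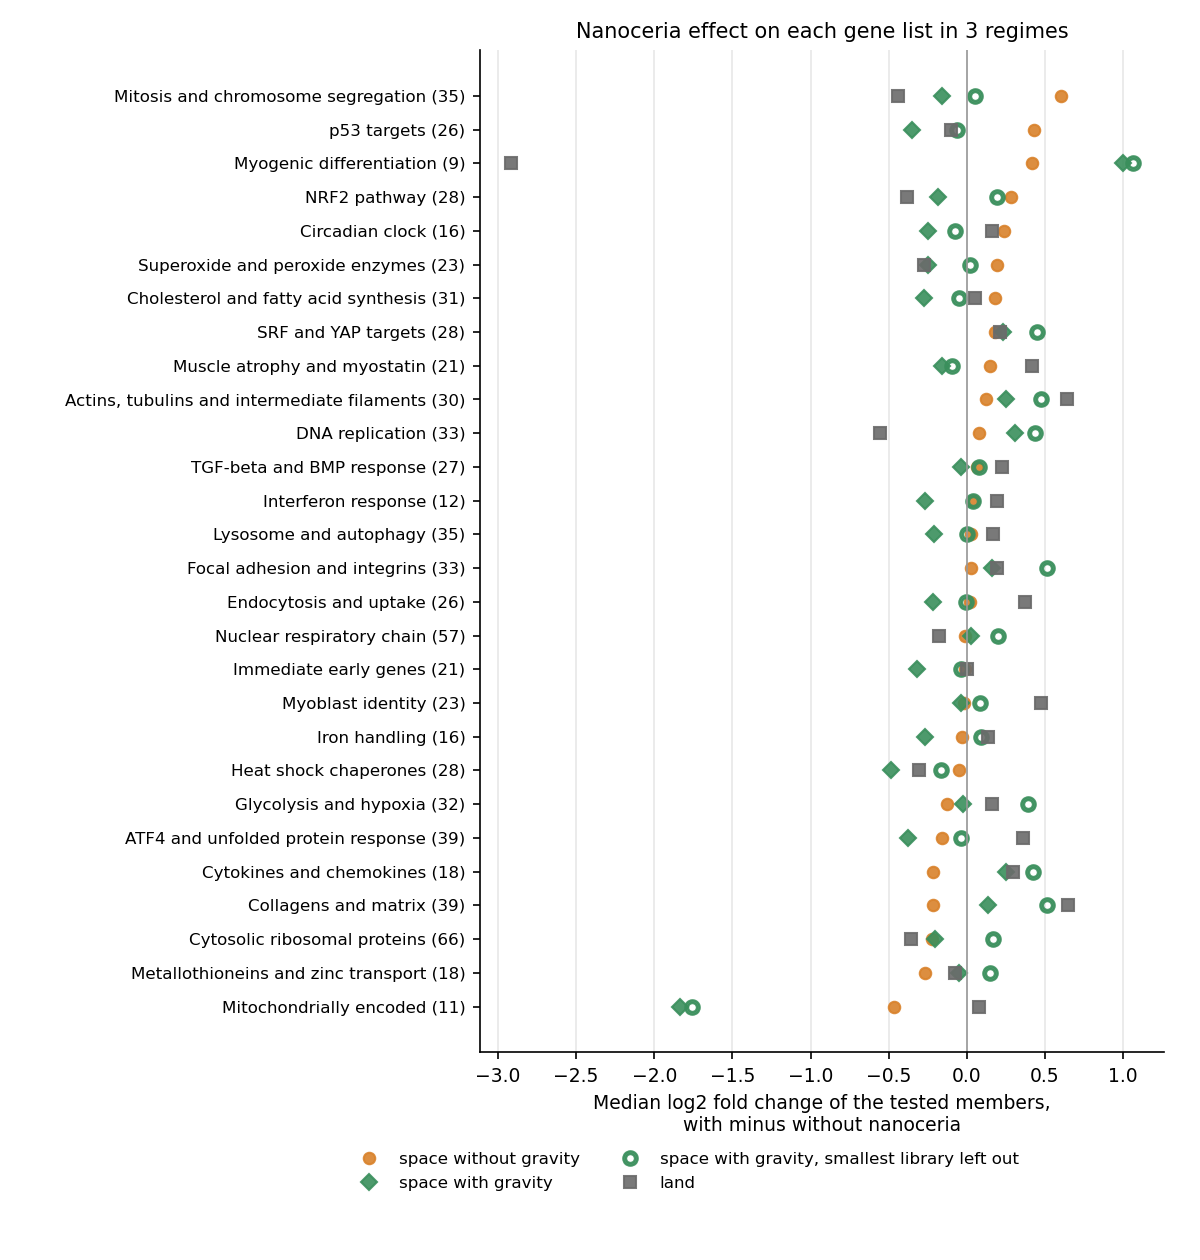
Median log2 fold change (nanoceria minus untreated) of each of 28 gene lists in space without gravity (orange), space with gravity (green diamonds; rings without the smallest library) and on land (grey squares), with the number of tested members in brackets. The mitosis list lies at 0.60 without gravity and at −0.44 on land, and the mitochondrially encoded list reaches −1.84 in space with gravity.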

How the data were processed

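The deposited files, a separate one for each library, list unnormalised read counts of Ensembl genes beside gene coordinates and lengths, per the file headers. The submitters' processing notes name CASAVA, Trimmomatic 0.36.29, STAR, Subread, featureCounts and GRCm38.p6, with no settings; strand use and treatment of multiply mapped reads are not given in the sources used here. Libraries of polyadenylated RNA were made with a NEBNext Ultra kit, per the labels' protocols. Of 49315 genes, 49056 matched GENCODE M21. The 18 small RNA samples were not analysed here.

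Counts of all 18 libraries were fitted in edgeR 4.0.16 (R 4.3.3) with filterByExpr over the 6 groups (11558 genes kept), TMM scaling, a group-means model with 12 residual degrees of freedom, and robust quasi-likelihood tests with Benjamini-Hochberg adjustment over all genes (threshold 0.05). The script was tested on simulated counts. CPM are TMM-scaled; log2 CPM use a prior count of 2. Standard errors were derived from the F statistic. Outside the dominant genes, 3 counts correspond to 0.791 to 2.31 CPM, a floor that covers counting error only. Shares were compared by exact permutation over the 20 reassignments.

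Genes were named by rule: genes past the threshold; the 12 highest and 12 lowest log2 fold changes among protein-coding nuclear genes with at least 100 mean counts whose groups did not overlap; 31 fixed genes; and up to 4 genes per list (highest, lowest, not overlapping). A few genes that the rule names are not reported here. The comparison, gene lists and named genes were chosen with earlier results of these data known. Alternatives were DESeq2 1.42.0 size factors or test, limma 3.58.1 voom with quality weights, other count filters, fewer libraries, removal of the dominant genes and leaving out each replicate.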

Additional observations from a re-analysis of the deposited data

How the results depend on the processing

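The count of genes called for nanoceria in space without gravity stayed at 0 under every alternative run except without a filter on low counts, where 25194 genes were tested and 205 passed (135 higher). Of the 205, 144 were also tested in the main fit, and 90 had over 90% of their counts in 1 library. Without that filter the 2 tests against the other regimes called 166 (space with gravity) and 320 (land) genes, and with DESeq2's test 15 and 37. At a mean of at least 50 counts over the 6 libraries, 390 genes did not overlap, 202 of them higher, against 393 higher of 930 in the main count. Fewer genes enter at that filter, so 390 and 930 are not comparable as numbers. The share without overlap was 8.65% among genes with mean counts of 61.33 to 162.7. It was 5.75% among those from 162.8 upward. Leaving out 1 replicate kept all 3 counts of calls at 0. It gave −12.8 to −1.75 points for the share of the dominant genes and −0.271 to −0.0991 for the mitochondrial share. With voom the sign changed for Col3a1 (0.23), Mt1 (0.023), Nfe2l2 (−0.0089) and Slc7a11 (−0.049), and with at least 50 counts for Fth1 (−0.012); the cause was not tested. Leaving out 1 replicate also turned signs, with ranges of −0.35 to 0.23 for Ftl1, −0.79 to 0.16 for Ccs, −0.65 to 0.34 for Col3a1, −0.085 to 0.62 for Des, −0.40 to 0.26 for Mt1 and −0.44 to 0.78 for Myf5. The ranges were −0.051 to 0.48 for Rpl30, −0.73 to 0.90 for Slc7a11, −0.20 to 0.77 for Sod1, −0.067 to 0.55 for Sod2, −0.29 to 0.41 for mt-Nd1 and −0.10 to 0.32 for Fth1. They were −0.15 to 0.76 for Srxn1, −0.83 to 0.069 for Tfrc, −0.45 to 0.95 for Col1a1, −0.016 to 2.31 for Col6a2 and −0.24 to 0.37 for Nfe2l2. List medians also turned sign with voom (clock −0.10, cytokines 0.06, immediate early 0.13, interferon −0.09, nuclear respiratory chain 0.02) and at a mean of at least 50 counts (actins and tubulins −0.03, endocytosis −0.07, immediate early 0.23, interferon −0.36, lysosome −0.10, atrophy −0.11, myoblast identity 0.18). Without a filter that of cytokines was 0.08 and that of myogenic differentiation 0. With only the 6 libraries, immediate early genes (0.10), interferon (−0.09), lysosome (−0.0030) and myoblast identity (0.09) turned, and without the dominant genes the nuclear respiratory chain (0.0019); DESeq2's test turned the 6 lists that its size factors turned. No paired analysis was possible because libraries of a group were numbered in accession order only, which links no cultures. With a median standard error of 0.74, most 2-fold differences (1 on the log2 scale) lie within 2 standard errors at this depth and replication.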

Other observations

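Beyond the lists, the gene with the smallest p was Gin1, a protein derived from a retroviral integrase, chosen here after its values were seen. It was higher with nanoceria by 3.79 ± 0.79 on the log2 scale (edgeR unadjusted p = 1.24e-04, adjusted 0.968), without overlap between the groups. Its counts were 4, 6 and 2 untreated and 76, 35 and 41 with nanoceria. Without a filter on low counts its edgeR adjusted p was 0.00552. That fit of the same libraries was the only alternative that called any gene. It called 205, of which 144 were also tested in the main fit and 90 had over 90% of their counts in 1 library. As Gin1 was picked from these data, this value is no separate support for it.

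Genes without overlap in the same direction in all 3 regimes were also looked for after the values were seen. Of the 11558 tested genes, none was higher with nanoceria in all 3, and 10 were lower: Gm6155, Ngly1, Nkiras1, Rbak, Spata7, Thoc7, Trnt1, Wdr3, Xlr and Zfp119b. Each regime alone also had more lower than higher genes without overlap. The shares of all tested genes were 4.65% lower and 3.4% higher without gravity, and 8.46% and 1.28% in space with gravity. On land they were 6.41% and 3.7%. The shares in space with gravity include the small nanoceria library. Only 4880 genes had counts in it, against 17101 and 14753 in the other nanoceria libraries there. Those shares were not computed without it. Whether 10 exceeds what the shares of the 3 regimes give was not tested. Leaving out the small library of space with gravity gave 11 lower genes, the added gene being Abhd17b, and still 0 higher ones. The 10 had log2 fold changes of −3.01 to −0.42 over the 3 regimes, on mean counts of 5.33 to 101.3 in the 6 libraries without gravity. Thoc7, a subunit of the complex that couples transcription to mRNA export, was at 21.3, 17.95 and 30.8 CPM untreated and at 16.9, 12.3 and 12.4 CPM with nanoceria in space without gravity. Wdr3, a factor of small ribosomal subunit assembly, was at 13.0, 12.6 and 11.6 CPM untreated and at 7.28, 5.57 and 10.8 CPM with nanoceria. Xlr was at 8.62, 8.39 and 11.2 CPM untreated and at 1.60, 1.49 and 3.89 CPM with nanoceria. Spata7, a ciliary protein, was lowest without gravity (−3.01 ± 0.79), where untreated replicate 1 at 22.5 CPM stood far above the other untreated libraries. None of the 10 passed the adjusted threshold for nanoceria without gravity.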
